A study of Homo sapiens with 4 samples.

Results

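Nonsense-mediated decay (NMD) transcripts are RNAs whose reading frame ends at a stop codon that lies well before the last exon-exon junction. The set described here holds 10319 transcripts that GENCODE 29 annotates as NMD transcripts, of 188753 transcripts in each deposited table. They belong to 4372 of the 9309 protein-coding genes that had at least 100 estimated counts in every library. The value followed is the NMD share: the percent of the estimated counts of a gene that were assigned to its NMD transcripts in 1 library. The share chose no member; only the annotation and the gene's total did. At the edge of that minimum, the lowest library of PIGA, NOCT and PSPH held 99.7, 99.9 and 99.9 counts and left them out. FKBP1B, RAD54L and CEP41 held 100, 100.2 and 100.2 counts and were kept.

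The cells were iMGL, microglia-like cells obtained by differentiating WTC11, an established line of human induced pluripotent stem cells. There were 2 libraries of unedited cells (WT 1 and WT 2) and 2 libraries of cells edited to lack SHIP1 (S1KO 1 and S1KO 2), the lipid phosphatase encoded by INPP5D. No treatment is named for either genotype. The design text speaks of 2 clones of each genotype, but the labels do not tie a library to a clone. Nothing says whether libraries of 1 genotype came from separate differentiations, so every p-value measures the spread between libraries, which may be technical.

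In NMD, a ribosome that stops upstream of an exon junction complex, the protein mark left where 2 exons were joined, recruits the helicase UPF1. UPF2 and UPF3B link UPF1 to that mark, the kinase SMG1 phosphorylates UPF1, and factors such as SMG5 and the endonuclease SMG6 then bring about the breakdown of the RNA. Many splicing regulators hold their own level in check by making NMD transcripts. A steady-state library shows what remains after synthesis and decay, so a share does not measure the rate of either.

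The annotated stop codon lay more than 50 bases before the last junction in 10214 of the 10307 transcripts for which both positions were known (99.1%). The median distance was 311 bases, with a median of 3 junctions after the stop. In 1065 transcripts (10.3%), the stop was also the stop of a protein_coding transcript of the gene. By comparison with the protein_coding transcripts of the same gene, 3606 NMD transcripts held an extra exon, 2386 an extended exon, 330 kept an intron and 3997 added no sequence, being joined differently. How well such a transcript can be told from its neighbours was measured as its number of 31-base words (the default word length of kallisto, the program that assigned the reads) that no other type of transcript of the gene holds. No such word existed for 1222 transcripts (11.8%), 3855 had 1 to 30, about what 1 new junction gives, and 5242 had more than 30. Below, such words are called a transcript's own, though other NMD transcripts of the gene or transcripts of other genes may hold them.

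The transcripts below carried most of the NMD counts of genes in which both S1KO libraries lay far from both WT libraries. Each stretch is reading frame from GENCODE 29 (GRCh38), 5′ to 3′, ending at the annotated stop codon, which is in capitals. The stop codons lie at chr5:66158840-66158842 (+ strand, SREK1), chr14:73088377-73088379 (+, RBM25), chr17:50741125-50741127 and chr17:50749242-50749244 (+, LUC7L3-214 and LUC7L3-205), chr18:9239497-9239499 (+, ANKRD12), chr1:154589900-154589902 (−, ADAR), chr12:56283817-56283819 (−, CS) and chr12:51240986-51240988 (+, DAZAP2). None of these stops was shared with a protein_coding transcript of the gene. Except for RBM25-207, each stretch starts at the first 31-base word that only NMD transcripts of the gene hold. The first 5 transcripts are from genes with higher shares in S1KO and the last 3 from genes with lower shares. The first exon junction within each stretch lies after 30 bases in SREK1-209, LUC7L3-205 and ADAR-215, after 29 in ANKRD12-202 and DAZAP2-203, after 28 in LUC7L3-214, after 140 in RBM25-207 and after 4 in CS-215. A second junction lies after 59 bases in SREK1-209, after 68 in LUC7L3-214 and after 25 in CS-215, which holds 3.
SREK1-209: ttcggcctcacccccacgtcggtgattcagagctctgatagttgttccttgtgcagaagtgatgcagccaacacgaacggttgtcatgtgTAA
RBM25-207: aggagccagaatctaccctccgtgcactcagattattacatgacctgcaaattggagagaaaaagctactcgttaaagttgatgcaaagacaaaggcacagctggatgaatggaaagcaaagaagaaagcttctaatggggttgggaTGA
LUC7L3-214: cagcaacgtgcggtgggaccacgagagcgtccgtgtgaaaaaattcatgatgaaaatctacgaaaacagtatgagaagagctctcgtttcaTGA
LUC7L3-205: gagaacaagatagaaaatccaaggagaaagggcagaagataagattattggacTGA
ANKRD12-202: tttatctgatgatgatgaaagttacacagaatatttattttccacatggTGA
ADAR-215: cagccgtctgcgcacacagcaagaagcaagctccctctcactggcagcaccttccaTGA
CS-215: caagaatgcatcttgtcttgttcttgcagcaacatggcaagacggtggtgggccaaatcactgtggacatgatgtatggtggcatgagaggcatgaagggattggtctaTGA
DAZAP2-203: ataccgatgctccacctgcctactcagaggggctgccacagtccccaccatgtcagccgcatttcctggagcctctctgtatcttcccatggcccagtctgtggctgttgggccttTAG

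Totals of the estimated counts were 21516813 in WT 1, 25927881 in WT 2, 22792480 in S1KO 1 and 22334585 in S1KO 2. Mitochondrially encoded RNAs took 14.2% and 18.9% of them in WT against 52.3% and 39.2% in S1KO. The 4372 genes were left with 8091857 and 9464576 counts in WT against 4347145 and 6083681 in S1KO. INPP5D itself was at 356 and 441 CPM (a count scaled to the size of its library) in WT and at 81.0 and 97.6 in S1KO, and fell by 2.16 ± 0.21 on the log2 scale (SE; edgeR, adjusted p = 0.0184). The 12 myeloid markers summed to 7778 and 8156 TPM in WT and 2134 and 3616 in S1KO, on a scale where the median of all genes also lay lower (-0.78 in log2(TPM + 1)). With TMM scaling their median log2 fold change was -0.73 (all genes: -0.02), and 1 of the 12, P2RY12, fell past the threshold (edgeR). DESeq2 called 7 of the 12 markers, beside 7.51% of all genes. Without overlap of the groups, 7 of the 12 were lower in S1KO, beside 25.8% of all genes. In bulk libraries, fewer cells of a type and less RNA per cell cannot be told apart. The 6 mesenchymal markers summed to 903 TPM in WT 1 and 3.15 to 5.08 in the other libraries, and the pluripotent (5), erythroid and megakaryocyte (7) and granulocyte (5) markers to at most 8.69 TPM in any library. The part of these differences in the results that follow was not tested, apart from leaving out each library in turn.

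Over all 4372 genes together, NMD transcripts took 7.55% (WT 1), 8.40% (WT 2), 7.49% (S1KO 1) and 7.93% (S1KO 2) of the estimated counts. The S1KO values spanned the lower WT value, so the groups overlapped. S1KO lay 0.263 percentage points under WT, while the WT libraries were 0.857 points apart (exact permutation test over libraries, two-sided p = 0.667; 2 against 2 cannot go under 0.333). Without WT 2 the difference turned to 0.165 points. Most genes gave NMD transcripts little: 420 genes had 0 counts on them in every library, 1690 genes (these included) had a mean share under 1%, 1528 had 1 to 10%, 995 had 10 to 50% and 159 had 50% or more.

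Taken by structure, NMD transcripts that kept an intron made up 0.783% and 0.894% of the counts in WT and 0.535% and 0.685% in S1KO. Both S1KO values were under both WT values (exact permutation test, two-sided p = 0.333, the smallest possible). Those with an extra exon gave 2.33% and 2.52% in WT and 2.63% and 2.67% in S1KO, with both S1KO values above both WT values (exact p = 0.333). The extra-exon class includes RBM25-207, whose estimated counts were 2474 (WT 1), 3794 (WT 2), 10754 (S1KO 1) and 10707 (S1KO 2). The class was not compared with that transcript left out, so a shift of its other members cannot be read from these values. NMD transcripts with an extended exon gave 1.92%, 2.04%, 1.91% and 2.02%, in the order WT 1, WT 2, S1KO 1, S1KO 2. NMD transcripts with no added sequence gave 2.40%, 2.81%, 2.33% and 2.45% in that order. In these 2 classes the groups overlapped. The retained_intron transcripts of the same genes, another type that GENCODE keeps apart from NMD, took 14.1% and 16.3% in WT and 11.5% and 14.4% in S1KO, and these groups overlapped too.

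Gene by gene, shares differed more between libraries than the total shows. A share was compared in 2554 genes that had means of at least 10 counts on NMD transcripts and 10 on others; the other 1818 genes fell short of that. Of the 2554, 61 and 39 were at 0 NMD counts in WT and 211 and 145 in S1KO, where these genes were more thinly covered. WT 1 and WT 2 differed by a median of 2.46 percentage points, and 342 genes (13.4%) lay more than 10 points apart. S1KO 1 and S1KO 2 differed by a median of 2.92 points, with 471 genes (18.4%) more than 10 points apart. The 4 pairs of a WT with an S1KO library had medians from 3.11 to 4.02 points, with 519 to 640 genes over 10 points apart. Every pair across genotypes therefore had a larger median difference than either pair within a genotype.

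**Figure D1:**
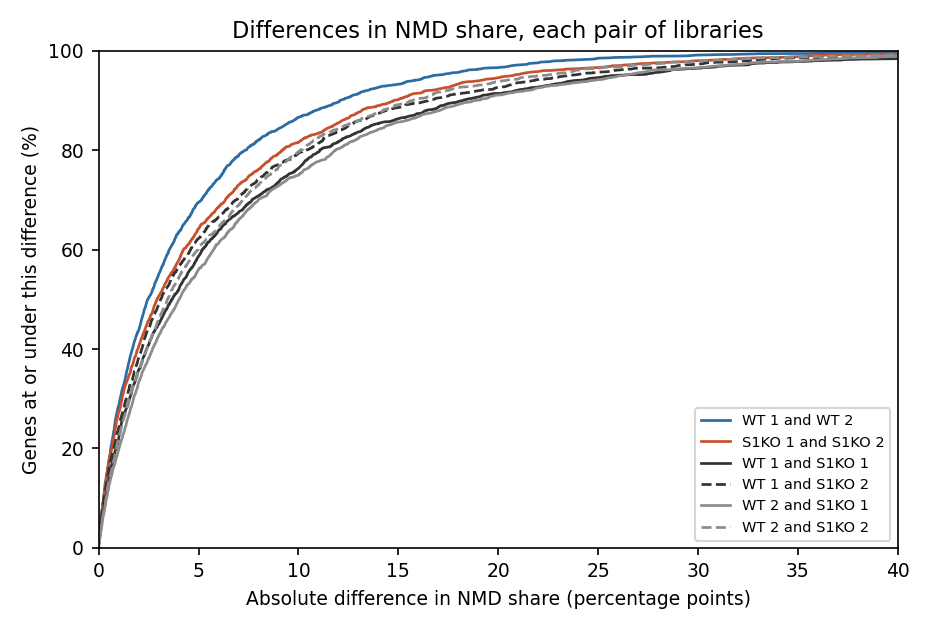
Cumulative percent of the 2554 genes (y axis) whose NMD share differed by no more than the value on the x axis (percentage points), with 1 line for each pair of libraries. The line for WT 1 and WT 2 is the leftmost, with 13.4% of genes more than 10 points apart, followed by that for S1KO 1 and S1KO 2, with 18.4%.

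The differences went both ways. The median difference of S1KO from WT was -0.31 points (quartiles -3.43 and 2.44), which turned to 0.00844 without WT 2. Both S1KO libraries lay above both WT libraries in 512 genes (20%) and below them in 702 (27.5%). The minimum of 10 NMD counts was a mean over all 4 libraries, so a gene could pass it through 1 genotype alone. WT held more counts of these genes, and the part of that filter in the larger number of lower shares was not tested. With a difference of more than 20 points as well, 60 genes were higher and 66 lower, whereas the WT libraries were more than 20 points apart in 87 genes and the S1KO libraries in 139.

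edgeR's quasi-likelihood test of the NMD to other ratio, with each library as its own block, called 0 of the 2554 genes (0%) at an adjusted p under 0.05. At an unadjusted p under 0.05 it found 276 (10.8%), 117 with a higher share in S1KO (4.58%) and 159 with a lower one (6.23%). The smallest adjusted p was 0.287. DESeq2 on the same counts called 143 genes (5.6%), 57 higher (2.23%) and 86 lower (3.37%), and limma on log2 ratios called from 1 to 4. Data were also simulated with each library's gene totals. Changes were placed only in genes well above the minimum of 10 counts on NMD and on other transcripts, with NMD the smaller part. NMD and other counts were drawn independently, so the rates do not cover the genes with the fewest counts or the division of reads among transcripts. In these data edgeR recovered 12% of 4-fold and 69% of 16-fold changes of the ratio, and 2 of its 83 calls were of unchanged genes. DESeq2 recovered 17% and 82%, with 13 of 112 calls on unchanged genes. The genes that follow are therefore given as values: none passed the main test.

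**Figure D2:**
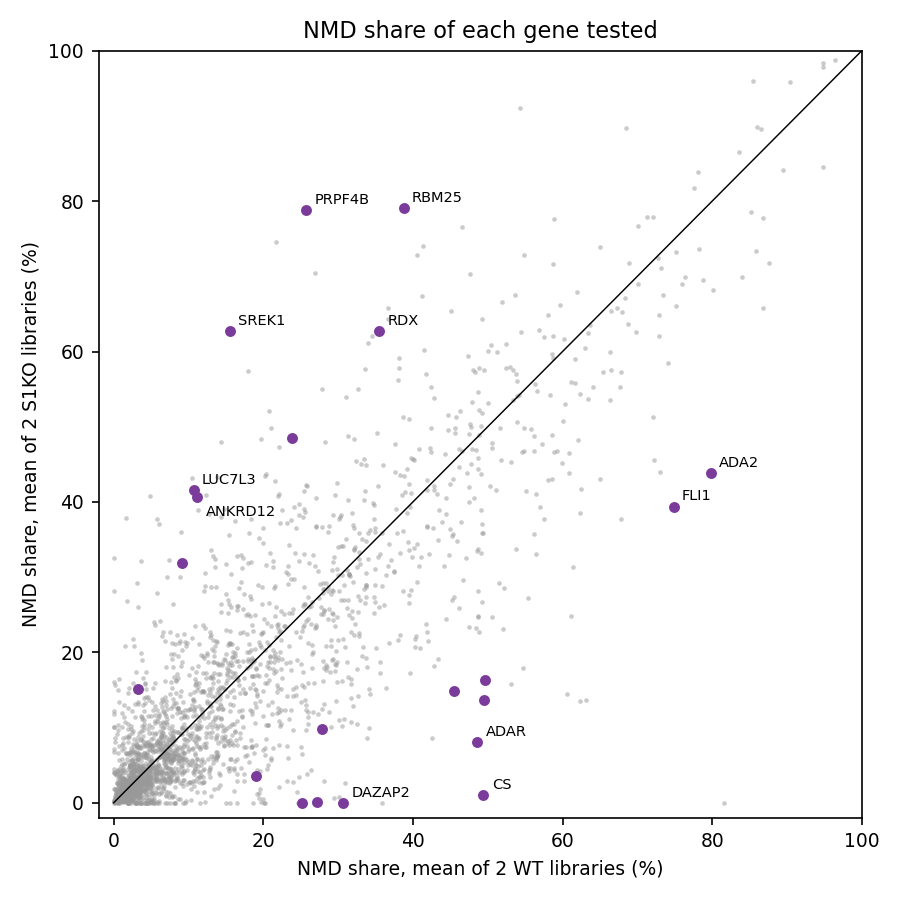
Mean NMD share of the 2 S1KO libraries (y axis, %) against that of the 2 WT libraries (x axis, %) for each of the 2554 genes; the line marks equal shares and the larger points are 21 genes chosen after their values were seen. PRPF4B and RBM25 lie above the line at over 70% in S1KO, and ADAR, CS and DAZAP2 lie near the bottom.

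The 5 genes of smallest p with a higher share in S1KO were CLIC4, POFUT2, EXOC5, SREK1 and PRPF4B. PRPF4B, a kinase that acts on splicing factors, had shares of 26% and 25.5% in WT and 83.4% and 74.2% in S1KO. Both S1KO libraries lay far above both WT libraries, which were within 1 point of each other. The log2 change of the NMD to other ratio was 3.45 ± 0.47 (SE; adjusted p = 0.287, edgeR; DESeq2 adjusted p = 4.18e-06). Its leading transcript, PRPF4B-205, ends at a stop that a protein_coding transcript of the gene also uses and is classed by 1 junction that follows that stop. With 1331 31-base words found only in NMD transcripts, it is well set apart from the other transcripts of the gene. The level of the NMD transcripts of PRPF4B was 18.9 and 19.6 CPM for WT against 82.2 and 67.1 for S1KO, and that of its other transcripts 53.8 and 57.2 against 16.4 and 23.3, leaving a small difference in the total (log2 fold change 0.34 ± 0.15, adjusted p = 0.294, edgeR).

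SREK1, a serine- and arginine-rich regulator of splicing, had shares of 14.4% and 16.7% in WT and 68.8% and 56.6% in S1KO. The gap between the S1KO libraries was wider than that between the WT libraries, and both were far above WT. The log2 ratio change was 3.20 ± 0.43 (adjusted p = 0.287, edgeR; DESeq2 4.28e-06). Here the other transcripts measured 123 and 133 CPM for WT against 98.2 and 120 for S1KO, and the NMD transcripts 20.9 and 26.7 against 216 and 156. SREK1-209, printed above, held 85.3% of the NMD counts and differs from other transcripts of the gene by only 27 words around its junctions. GENCODE gives this model its weakest support level, 5. Other leading transcripts of genes named below have that level too, among them DAZAP2-203, LUC7L3-205, RBM38-202, YWHAE-202, ENGASE-201, ZNF527-201, BRPF3-204 and UMAD1-208.

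In EXOC5, a subunit of the exocyst that tethers secretory vesicles, and POFUT2, an enzyme that adds fucose to proteins, both WT libraries had 0 NMD counts. A count of 0 allows shares of up to 0.402% and 0.396% in EXOC5 and 0.330% and 0.269% in POFUT2, counting error only. In S1KO the shares were 12.2% and 12.3% for EXOC5 and 10.3% and 9.92% for POFUT2. The leading transcript of POFUT2 has no 31-base word of its own, and that of EXOC5 has 28. CLIC4, a chloride intracellular channel protein, had 0.446% and 0.802% in WT and 13.6% and 16.4% in S1KO, at NMD levels of 0.226 and 0.193 CPM against 6.16 and 4.59. In all 3 genes the groups were far apart, but the counts were low.

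The 5 genes of smallest p with a lower share in S1KO were DAZAP2, GANAB, INTU, MED15 and CABLES1. DAZAP2, an adaptor protein, had shares of 30.5% and 30.8% in WT and 0% in both S1KO libraries, where a count of 0 allows up to 0.107% and 0.101%. The WT libraries were nearly equal, at 38.6 and 42.4 CPM of NMD transcript. Its other transcripts measured 88.0 and 95.2 CPM for WT against 189 and 140 for S1KO. All its NMD counts fell on DAZAP2-203, which 27 words set apart. GANAB, the catalytic subunit of glucosidase II of the endoplasmic reticulum, had 28.9% and 25.4% in WT and 0.207% and 8.63e-06% in S1KO. Its leading transcript, GANAB-211, has no word of its own.

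CABLES1, a cyclin-dependent kinase adaptor, had 23.9% and 25.5% in WT and 0% in both S1KO libraries (up to 0.694% and 0.55%). INTU, a ciliogenesis protein, had 3.65% and 5.96% in WT and 0.191% and 0.0923% in S1KO. In INTU the NMD level was low in all libraries (1.02 and 1.75 CPM against 0.222 and 0.098), and the other transcripts measured 26.9 and 27.6 CPM for WT against 116 and 106 for S1KO. At the gene level, INTU rose (log2 fold change 1.96 ± 0.16, adjusted p = 0.0173, edgeR). MED15, a subunit of the Mediator complex, had 2.37% and 1.34% in WT and 0% and 0.0255% in S1KO. Groups did not overlap in any of these 5 genes.

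To see which well-covered genes differed, 21 genes were taken after their values were seen: those that DESeq2 called, whose groups did not overlap and that had a mean of at least 500 NMD counts. Of these, 9 had higher shares in S1KO and 12 lower, and SREK1, PRPF4B, DAZAP2 and GANAB are among them. These counts are a description, since the selection fixed them. NMD transcript CPM did not overlap between genotypes in any of the 21 either. The selection favours this too, and how often it held over all 2554 genes was not counted.

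**Figure D3:**
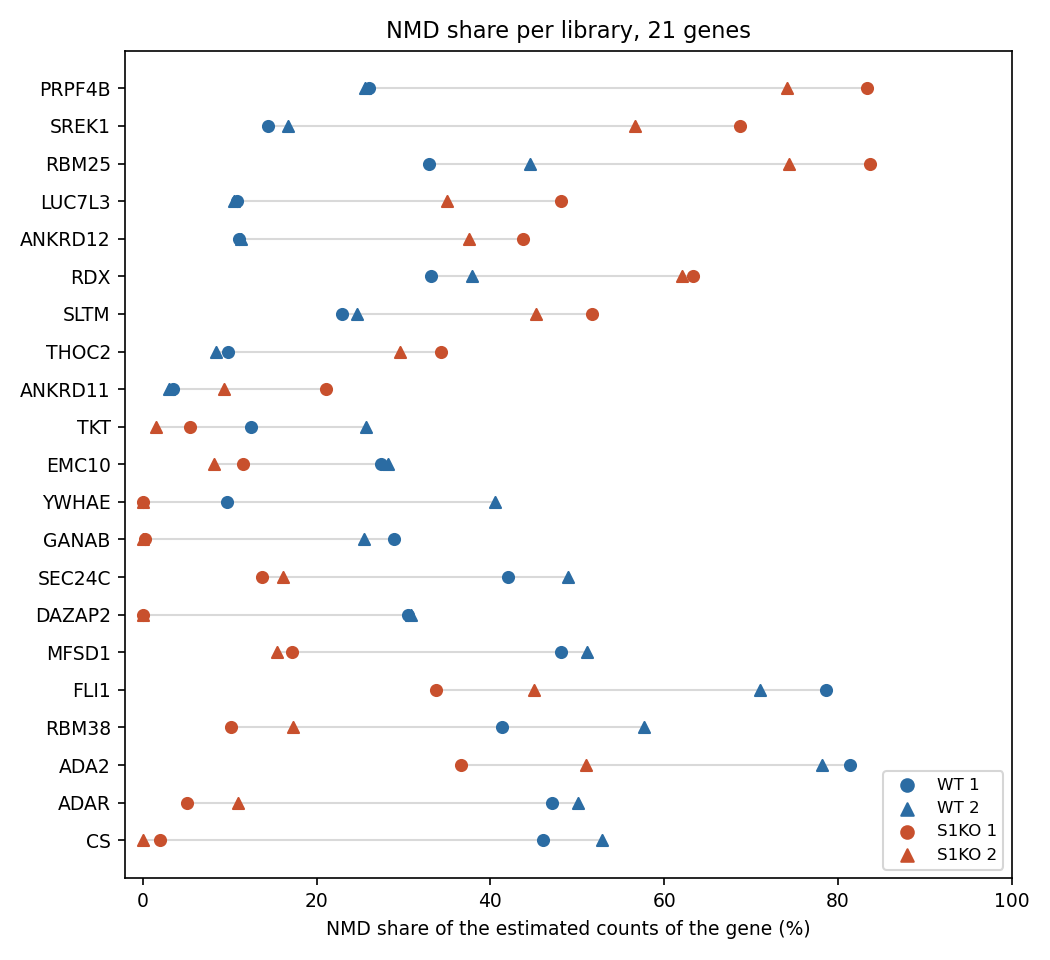
NMD share (x axis, %) of 21 genes in each of the 4 libraries; circles are replicate 1, triangles replicate 2, blue WT and orange S1KO, and a grey line spans the 4 values. Groups do not overlap in any gene, by the choice of genes, and in all 9 genes with higher shares S1KO 1 lies further from WT than S1KO 2.

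RBM25, a splicing factor with an arginine- and glutamate-rich domain, had shares of 32.9% and 44.6% in WT and 83.7% and 74.4% in S1KO. The WT libraries were 11.7 points apart, and the lower S1KO value was still well above both. All its NMD counts fell on RBM25-207, which holds an extra exon of 105 bases and 165 words of its own. Its NMD transcript measured 88.4 and 121 CPM for WT against 725 and 503 for S1KO, while the other transcripts measured 180 and 151 against 141 and 173. The gene's total rose (log2 fold change 1.51 ± 0.21, adjusted p = 0.0439, edgeR), and the other transcripts overlapped between the groups.

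LUC7L3, a protein of the U1 snRNP, which recognises 5′ splice sites, had shares of 10.9% and 10.5% in WT and 48.1% and 35.1% in S1KO. Its 2 leading NMD transcripts, both printed above, differed in how far they lay from WT. LUC7L3-214 made up 0.453% and 0.125% of the gene in WT and 23.4% and 13% in S1KO, and LUC7L3-205 made up 8.32% and 8.59% and then 23.1% and 20%. For both, the S1KO libraries lay above the WT libraries. NMD transcripts measured 38.1 and 32.7 CPM for WT against 409 and 269 for S1KO, and the others at 312 and 279 against 441 and 498.

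ANKRD12, an ankyrin repeat protein, had shares of 11.1% and 11.3% in WT and 43.7% and 37.5% in S1KO. Nearly all of its NMD counts fell on ANKRD12-202, which has an extra exon and 109 words of its own. THOC2, the scaffold of the THO complex that couples transcription to RNA export, had 9.79% and 8.45% in WT and 34.3% and 29.6% in S1KO. In both genes the WT libraries were within 2 points of each other and the S1KO libraries stood well apart from them. THOC2 was called at the gene level (log2 fold change 1.15 ± 0.17, adjusted p = 0.0485, edgeR) and ANKRD12 was not (1.24 ± 0.19, adjusted p = 0.0526).

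SLTM, an RNA-binding protein with a SAP domain, had 22.9% and 24.6% in WT and 51.7% and 45.3% in S1KO. Its 2 leading transcripts exchanged places between the S1KO libraries: SLTM-208 made up 20.7% and 35.7% of the gene, and SLTM-212 30.6% and 9.38%. RDX, which links actin to the membrane, had 33.1% and 37.9% in WT and 63.3% and 62.1% in S1KO, on a leading transcript with no word of its own. ANKRD11, a chromatin regulator related to ANKRD12, had 3.43% and 3.0% in WT and 21.1% and 9.29% in S1KO. ANKRD11 showed the widest gap between S1KO libraries relative to its change among the 9 genes with higher shares.

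In all 9 genes with a higher share, S1KO 1, the library with 52.3% mitochondrial counts, lay further from WT than S1KO 2, with 39.2%. In the 12 genes with a lower share this was so in 5. Over all 2554 genes, too, S1KO 1 differed more from WT 1 and WT 2 (medians of 3.67 and 4.02 points) than S1KO 2 did (3.11 and 3.44). The gene-level log2 fold change was positive in 9 of 9 genes with a higher share (median 0.96, 2 passed the test). It was positive in 4 of 12 with a lower share (median -0.12, 1 passed) and in 7500 of all 15383 genes. NMD counts are part of a gene's total and the genes were chosen for many of them. The choice therefore favours a positive change where the share is higher. The leading transcript had at most 30 words of its own in 5 of 9 and 8 of 12 genes. Among all 10319 NMD transcripts, 1222 had none and 3855 had 1 to 30.

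**Figure D4:**
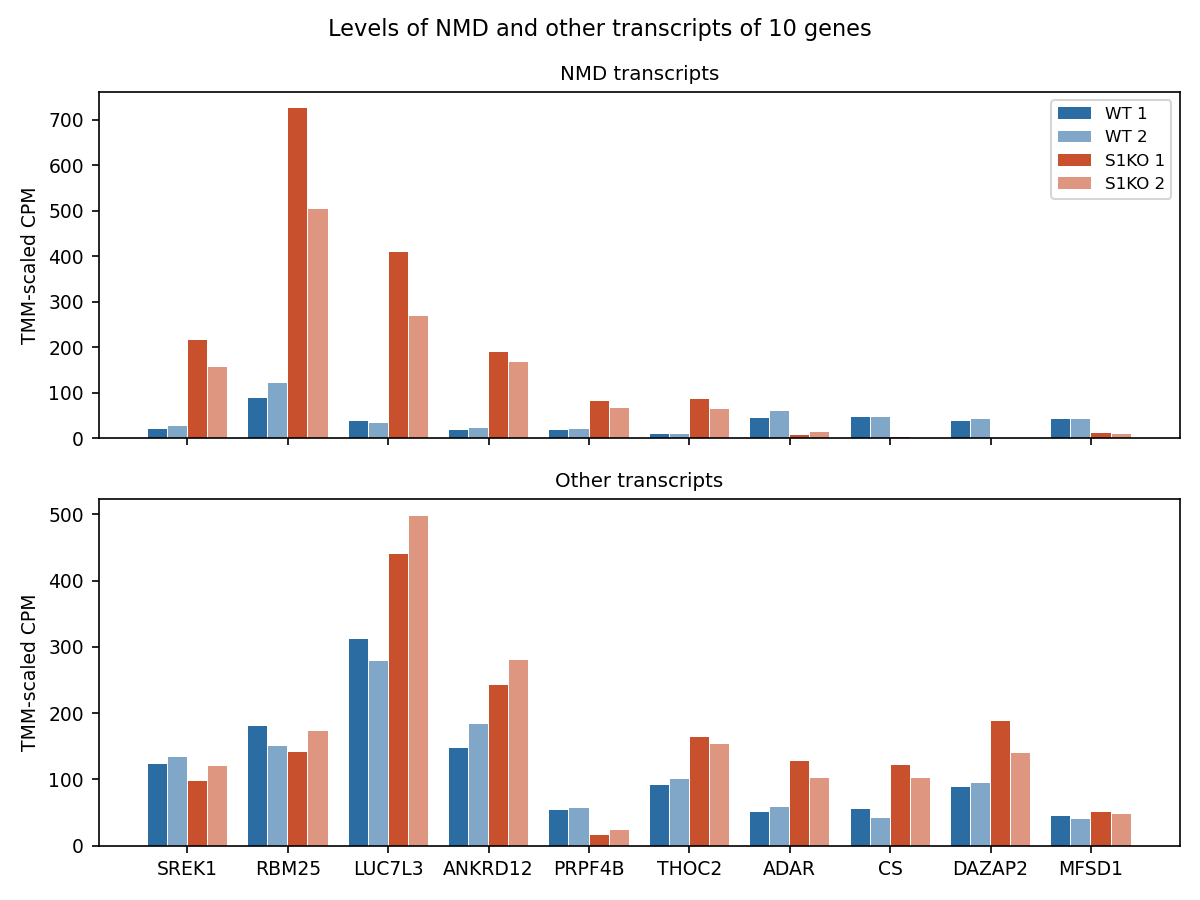
Level of NMD transcripts (upper panel) and of the other transcripts (lower panel) of 10 genes in each library, in TMM-scaled CPM; blue bars are WT and orange bars S1KO, darker for replicate 1. In RBM25 the NMD transcript lies at 725 and 503 in S1KO against 88.4 and 121 in WT with the others overlapping, and in ADAR the NMD transcripts are low and the others high in S1KO.

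Among the 12 genes with a lower share, ADAR, the adenosine deaminase that edits double-stranded RNA, had 47.1% and 50.1% in WT and 5.05% and 11.0% in S1KO. The WT libraries were close to each other and both S1KO libraries were far below. NMD transcripts measured 45.5 and 59.1 CPM for WT against 6.80 and 12.7 for S1KO, and the others at 51.1 and 58.8 against 128 and 103. The total of the gene differed little (log2 fold change 0.22 ± 0.18, adjusted p = 0.55, edgeR). CS, citrate synthase of the citric acid cycle, had the same pattern, with shares of 46.0% and 52.8% in WT and 1.94% and 0.0803% in S1KO and other transcripts at 54.8 and 41.7 CPM against 121 and 102. Both genes rest on transcripts with few words of their own, 28 in ADAR-215 and 27 in CS-215.

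Of the same 12 genes, 2 are factors or enzymes of blood cells. FLI1, an ETS family transcription factor, had 78.6% and 71.1% in WT and 33.7% and 45.1% in S1KO, on 2 leading transcripts with no word of their own. ADA2, a secreted adenosine deaminase of myeloid cells, had 81.4% and 78.1% in WT and 36.6% and 51.0% in S1KO. In both, all S1KO values were below all WT values but well above 0. RBM38, an RNA-binding protein, had 41.3% and 57.7% against 10.1% and 17.3%, and it is the 1 gene of the 12 that passed the gene-level test (log2 fold change -1.22 ± 0.18, adjusted p = 0.0480, edgeR).

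MFSD1, a lysosomal transporter, had shares of 48.2% and 51.1% in WT and 17.2% and 15.5% in S1KO. SEC24C, a cargo adaptor of COPII vesicles, had 42.0% and 49.0% in WT and 13.7% and 16.2% in S1KO. SEC24C-203 holds 266 words that only NMD transcripts of its gene have, but none of these was absent from the transcripts of other genes. EMC10, a subunit of the membrane protein insertase of the endoplasmic reticulum, had 27.4% and 28.2% in WT and 11.5% and 8.18% in S1KO. YWHAE, a 14-3-3 protein, had 9.74% and 40.6% in WT and 0% in both S1KO libraries, and TKT, transketolase of the pentose phosphate pathway, had 12.4% and 25.7% against 5.47% and 1.57%. In these last 2 genes the WT libraries differed widely from each other.

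A pair of further genes was chosen singly after their values were seen. NSRP1, a regulator of alternative splicing, had shares of 2.16% and 5.27% in WT and 32.9% and 31.5% in S1KO. Its leading transcript, NSRP1-202, holds 145 words of its own within the gene, of which 70 are absent from transcripts of other genes. ENTPD1, the ectonucleotidase CD39 of microglia, had 9.47% and 7.40% in WT and 22.2% and 22.3% in S1KO. In both genes the S1KO libraries agreed within 2 points and were above both WT libraries, and neither passed edgeR (adjusted p = 0.287 for NSRP1 and 0.316 for ENTPD1).

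Among less covered genes, 5 with mean differences of over 45 points, also chosen after their values were seen, have leading NMD transcripts that are in most cases easier to tell apart. ZNF527, a zinc finger protein, had 68.5% and 94.6% in WT and 0% in both S1KO libraries, where a count of 0 allows up to 2.71% and 1.58%. Its NMD counts were only 92.0 and 189 in WT, and ZNF527-201 has 2103 words of its own. BRPF3, a chromatin reader of histone acetyltransferase complexes, had 62.3% and 62.5% in WT and 13% and 14.0% in S1KO, and USP38, a deubiquitinase, had 55.2% and 66.0% against 15.0% and 14.0%. In all 3 genes the S1KO libraries were close to each other and far below WT.

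TRANK1 had shares of 71.2% and 55.1% in WT and 9.25% and 18.1% in S1KO. UMAD1 had 28.1% and 15.3% in WT and 73.0% and 76.1% in S1KO, the reverse direction. The leading transcripts TRANK1-206, UMAD1-208 and USP38-203, each with an extra exon, hold 825, 231 and 144 words that only NMD transcripts of their gene have. BRPF3-204 has 27. All 5 genes had non-overlapping groups, which the choice of large differences favours, and none passed edgeR (lowest adjusted p = 0.287).

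Among the 10 genes with the most NMD counts, RBM25, described above, had a share 40.3 points higher in S1KO. The other 9 were closer between genotypes, with PREX1 the furthest apart of them. RACK1, a protein of the small ribosomal subunit, had 66.7%, 73.1%, 56.9% and 68.4% in WT 1, WT 2, S1KO 1 and S1KO 2. RPS3, another such protein, had 29.8%, 35.4%, 23.5% and 31.6%, and RBM6, a splicing regulator, had 47.0%, 38.0%, 45.9% and 53.8%. In these 3 genes the groups overlapped, and none passed the test (lowest adjusted p = 0.705, edgeR). The shares of RACK1 rest on little distinguishing sequence. RACK1-224 and RACK1-210 held 51.8% and 46.8% of its NMD counts and have only 19 and 2 words that other types of transcript of the gene lack.

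SAMHD1, the dNTP hydrolase that restricts retroviruses in myeloid cells, had 58.3% and 54.0% in WT and 46.3% and 47.3% in S1KO. Its 2 leading transcripts differed in opposite directions: SAMHD1-214 made up 40.5% and 39.8% of the gene in WT against 13.6% and 22.0% in S1KO, and SAMHD1-217 14.2% and 5.54% against 27.1% and 21.2%. PREX1, a Rac exchange factor, had 60.6% and 63.9% in WT and 27.7% and 49.4% in S1KO (difference of means -23.7 points), on a transcript that keeps an intron. FTH1, the ferritin heavy chain, had 8.44% and 23.7% in WT and 2.85% and 6.44% in S1KO, on a transcript with no word of its own. PREX1 and FTH1 did not overlap between groups, yet the S1KO libraries of PREX1 and the WT libraries of FTH1 were widely apart (adjusted p = 0.477 and 0.502, edgeR).

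PDIA3, a protein disulfide isomerase, had 91.7% and 87.1% in WT and 84.2% and 84.1% in S1KO, and ENGASE, which removes N-glycans, had 87.6%, 85.5%, 89.6% and 89.6%. MYO18A, an unconventional myosin, had 69.2%, 63.5%, 61.9% and 58.0%. In these 3 genes the transcript typed as NMD was the main form in every library, and the genotypes were at most 6.42 points apart. PDIA3-202 and ENGASE-201 hold 205 and 2278 words of their own, and the stop of ENGASE-201 is also that of a protein_coding transcript.

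INPP5D gave 0.744% and 0.970% of its counts to NMD transcripts in WT, against 0.998% and 1.12% in S1KO. Both S1KO values were just above both WT values, by less than the gap between the WT libraries. The log2 ratio change was 0.32 ± 0.37 (adjusted p = 0.769, edgeR), although the gene's total fell.

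Microglial and other myeloid genes differed in share in both directions. Of 45 genes in that list, 14 were members and 9 were tested, with a median difference of -0.38 points (all genes tested: -0.31), 2 non-overlapping upward and 2 downward, where all genes tested had 20% upward and 27.5% downward. These counts were near that background. CSF1R, the receptor that microglia need to survive, had 15.7% and 27.9% in WT and 11.1% and 18.3% in S1KO, a difference of means of -7.13 points. TYROBP, the signalling adaptor of TREM2, had 12.7% and 11.9% in WT and 17.9% and 15.2% in S1KO, a difference of 4.25 points. MS4A6A, a membrane protein of myeloid cells, had 3.61% and 2.77% in WT and 1.98% and 2.43% in S1KO. Groups overlapped in CSF1R and did not in TYROBP and MS4A6A, and none of the 3 passed the test (adjusted p of at least 0.622, edgeR).

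Shares of genes known for transcripts controlled by NMD lay on both sides of WT. In that list 10 genes were tested for their share, with a median of -0.45 points, 2 non-overlapping upward and 4 downward, few genes against a background of 20% and 27.5% (median -0.31). EIF4A2, a translation initiation helicase, had 40.9% and 56.4% in WT and 32.1% and 35.3% in S1KO, and HNRNPDL, an RNA-binding regulator, had 9.12% and 9.53% against 13.6% and 13.1%. TIA1, a stress granule protein, had 2.11%, 1.58%, 0.527% and 1.58%. Of 13 SR splicing factors 11 were tested, with a median of -0.70 points, 1 non-overlapping upward and 5 downward, beside the same 20% and 27.5% over all genes. SRSF2 had 5.06% and 4.40% in WT and 6.34% and 8.08% in S1KO, and SRSF11 0.495% and 0.602% against 0.0956% and 0.197%.

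Of 43 hnRNPs and other RNA-binding regulators, 28 were tested, with a median of -0.17 points, 7 non-overlapping upward and 8 downward, near the 20% and 27.5% of all genes tested. CIRBP, the cold-inducible RNA-binding protein, had 24.4% and 16.2% in WT and 8.10% and 8.74% in S1KO. TIAL1, a relative of TIA1, had 21.8% and 33.8% against 12.3% and 12.7%, and HNRNPA1 15.7% and 11.3% against 21.9% and 19.8%. In all 3 the groups did not overlap, and none passed the test (adjusted p from 0.367 to 0.515, edgeR).

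At the gene level, the levels of the decay machinery were compared with TMM-scaled counts over 15383 genes, of which edgeR called 145 (0.943%), 122 of them higher in S1KO (0.793%) and 23 lower (0.15%). Of 46 genes of the machinery, 2 passed, UPF2 and UPF3B, and both rose. UPF3B, which bridges the exon junction complex to UPF2, measured 48.5 and 48.7 CPM for WT against 162 and 126 for S1KO. UPF2 measured 102 and 106 CPM for WT against 290 and 247 for S1KO. Both S1KO libraries were at more than double the WT level in each gene. The log2 fold change was 1.56 ± 0.18 for UPF3B (adjusted p = 0.0322, edgeR) and 1.37 ± 0.17 for UPF2 (adjusted p = 0.0405).

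In both genes protein_coding transcripts carried the counts, with 101 and 103 CPM for WT against 261 and 227 for S1KO in UPF2, and 48.0 and 47.9 against 159 and 124 in UPF3B. Neither had an NMD transcript among the members. Without S1KO 1 or S1KO 2, edgeR called 0 genes in all, so the missing calls there say nothing of these genes; the log2 fold change was then 1.25 and 1.46 for UPF2 and 1.37 and 1.72 for UPF3B. Without WT 1 or WT 2, fits that called 1994 and 2191 genes, both were called (adjusted p of at most 3.98e-05, edgeR). Each of these fits assumes that the lone library varies like the other genotype. In log2(TPM + 1), where the median of all genes lay at -0.78, the change was 1.13 for UPF2 and 0.55 for UPF3B, and limma called neither (adjusted p = 0.073 and 0.349).

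UPF3A, the paralogue of UPF3B, measured 91.7 and 99.3 CPM for WT against 158 and 165 for S1KO (log2 fold change 0.76 ± 0.16), and missed the threshold (adjusted p = 0.0867, edgeR). Its groups were well apart, as in UPF2 and UPF3B. Over 12 alternative settings the log2 fold change of UPF3A ranged from 0.0076 to 0.82, and with 1 library left out from 0.70 to 0.82. It passed the threshold under some of the 12 settings, which include the fits with 1 library left out. Its protein_coding transcripts measured 40.2 and 55.0 CPM for WT against 79.1 and 96.6 for S1KO. Those typed as processed_transcript measured 34.6 and 23.7 against 65.3 and 47.5. UPF1, the helicase at the centre of the pathway, measured 101 and 103 CPM for WT against 82.0 and 87.4 for S1KO (-0.27 ± 0.15, adjusted p = 0.376). SMG1, its kinase, was at 68.9, 65.0, 55.1 and 59.7, SMG5 at 85.8, 76.2, 78.0 and 76.3, and SMG6 at 28.6, 20.4, 30.5 and 27.2. SMG1 had both S1KO values under both WT values, and SMG5 and SMG6 overlapped. SMG8 and SMG9, which regulate SMG1, and NBAS and DHX34 overlapped between groups as well, at log2 fold changes from -0.13 to 0.18.

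**Figure D5:**
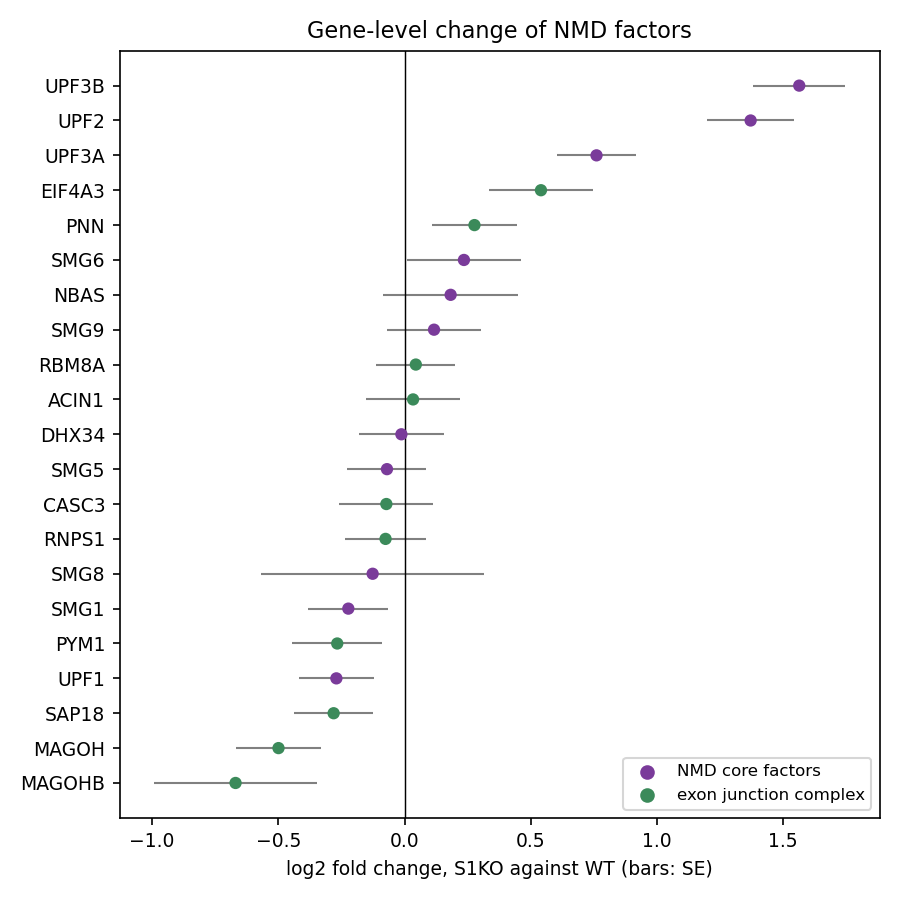
Gene-level log2 fold change of S1KO against WT (x axis; bars are standard errors from the edgeR fit) for NMD core factors (purple) and genes of the exon junction complex (green). UPF3B at 1.56 and UPF2 at 1.37 stand to the right and are the genes of the plot that passed the test; UPF3B belongs to both lists.

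Of 11 exon junction complex genes, 1 passed, UPF3B. The core subunits EIF4A3, RBM8A, MAGOH and CASC3 had log2 fold changes of 0.54, 0.04, -0.50 and -0.07. Of 9 termination and cap-binding genes and 15 enzymes of decay after NMD, none passed edgeR, and DESeq2 called none either. The shares of these genes themselves ranged widely. DHX34, an RNA helicase of the pathway, had NMD shares of 26.6%, 24.1%, 22.5% and 29.9%, with overlapping groups.

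ACIN1, a subunit that binds the exon junction complex, had shares of 24.8% and 26.1% in WT and 14.7% and 16% in S1KO, a difference of means of -10.1 points (log2 ratio change -0.91 ± 0.31, adjusted p = 0.437, edgeR). NCBP2, the small subunit of the nuclear cap-binding complex, had 7.78% and 7.50% in WT and 24.9% and 14.7% in S1KO, on a transcript with no word of its own. Its S1KO values were both above WT and widely apart. EIF4E, the cytoplasmic cap-binding protein, had 5.15% and 0.852% in WT and 0% in both S1KO libraries. PABPC1, EIF4G1, CNOT8 and SKIV2L had shares of at most 4.47% in any library. CNOT1, the scaffold of the CCR4-NOT deadenylase, had 8.37%, 5.94%, 18.8% and 6.18%, with 1 S1KO library apart from the other three.

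The level change of 24 genes from the list of known NMD-sensitive mRNAs was negative in S1KO in 20 of them, and in 7883 of all 15383 genes. The median log2 fold change was -0.35 (all genes: -0.02). Groups did not overlap with S1KO lower in 14 of the 24, against 25.8% of all genes. Other lists leaned lower too: 28 of 43 hnRNPs and other RNA-binding regulators, 10 of 13 SR splicing factors and 34 of 45 myeloid genes were negative. In these lists, 21, 7 and 27 genes did not overlap with S1KO lower. DESeq2 called 4, 2 and 19 genes of the same lists, and edgeR 0, 0 and 2. In the lists of the machinery, 6 of 12 core factors, 6 of 11 exon junction complex, 2 of 9 termination and 5 of 15 decay genes were negative. No gene of the 24 passed edgeR, and 3 passed DESeq2, which called 1156 of the 15383 genes (7.51%): ASNS, PTBP2 and SRSF2. ASNS, asparagine synthetase, measured 25.4 and 17.3 CPM for WT against 5.89 and 8.87 for S1KO, and PTBP2, a splicing repressor, 23.5 and 29.5 against 13.6 and 15.7. ATF4, the transcription factor of the integrated stress response, measured 313 and 448 CPM for WT against 261 and 278 for S1KO.

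Whether the calls lay in genes whose NMD transcripts are hard to tell apart was described by number of distinguishing words. Genes with 0 to 60 such words (644 genes) had non-overlapping groups in 45.3%, those with 61 to 300 (1020) in 47.4% and those with more than 300 (890) in 49.3%. DESeq2 called 6.99%, 6.37% and 3.71% of them. The median difference between WT 1 and WT 2 was 2.43, 2.21 and 2.83 points in the same order.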

How the data were processed

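Poly-A RNA of 4 iMGL libraries (2 WT, 2 S1KO) was sequenced as paired reads of 150 bases, per the labels' protocols. The authors deposited, per the file headers, an estimated count and a TPM for each transcript; kallisto and hg38 are named in the submitters' processing notes, while neither the transcript set nor any version is given in the sources used here. Transcripts were matched to GENCODE 29 by identifier (169797) or symbol (15322). Copies on alternate contigs took the type of a primary transcript with the same symbol, length and counts. Members and lists were chosen with earlier results of these data known. Estimated counts were rounded. edgeR 4.0.16 tested NMD against other counts with library blocks, and gene sums after TMM scaling and filterByExpr; p-values were adjusted by Benjamini-Hochberg over all genes. DESeq2 1.42.0 and limma 3.58.1 were alternatives. Named genes were INPP5D, the 5 of smallest p in each direction (no gene passed), the 10 with the most NMD counts, NMD core factors and up to 4 genes per list; others are said to be chosen after their values were seen, and 2 genes that the rule names are not reported here. CPM values are TMM-scaled. Wilson 95% intervals of the named genes' shares reached 7.76 points at most either side (ZNF527) and cover counting error only, as do limits at 0 (3 counts), not the division of reads among transcripts.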

Additional observations from a re-analysis of the deposited data

How the results depend on the processing

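Of 66 named genes with a share test, 63 kept the direction of their log2 ratio change under every alternative run and 3 did not, none of which passed in any fit: INPP5D turned to -0.10 with TPM in limma, and with 1 library left out DHX34 ranged from -0.22 to 0.34 (negative without WT 2 or S1KO 2) and CNOT1 from -0.20 to 1.61 (negative without S1KO 1). The count of changed shares was 0 in edgeR under every other filter, denominator, matching and left-out library, 143 with DESeq2, 4 and 1 with limma at pseudocounts of 0.5 and 5, and 1 with limma on TPM. Leaving out 1 library moved the summed share difference between -0.692 and 0.165 points and the median difference between -0.582 and 0.00844; both turned without WT 2. With the replicate block, 0 shares and 0 of the 46 machinery genes were called in edgeR (UPF2 adjusted p = 0.0743, UPF3B 0.0583), and 27 of 15383 genes. The deviations of same-numbered libraries had a correlation of 0.0456 (shares) and 0.0298 (levels). With 1 such deviation per genotype, this cannot decide whether same-numbered libraries were prepared together. Without 1 library, 0 to 3 machinery genes were called, and limma on log2(TPM + 1) and log2(TPM + 0.1) called 6 each, all lower, where the median of all genes lay at -0.78 and -0.97. Levels turned in those 2 TPM fits for EIF4A3 (-0.37, -0.38), NBAS (-0.67, -0.77), RBM8A (-1.11, -1.13), SMG6 (-1.07, -1.16) and SMG9 (-0.65, -0.67). With 1 library left out, the level change ranged from -0.0355 to 0.44 for NBAS, -0.0339 to 0.29 for SMG9 and -0.11 to 0.0873 for DHX34 (all turned without WT 2, DHX34 also without S1KO 1), from -0.15 to 0.0190 for SMG5 and -0.60 to 0.58 for SMG8 (without WT 1) and from -0.25 to 0.0666 for CASC3 (without S1KO 2); the cause was not tested. The setting of alternate-contig copies and the edgeR legacy setting were chosen after seeing the data.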
